A study of Mus musculus with 24 samples.

Results

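The T cell receptor is read out through the CD3 chains and a small set of kinases and adaptors that stand next to it. The mRNA of these genes was followed through thymic selection in a strain not prone and a strain prone to autoimmunity. The members were Cd3d, Cd3e, Cd3g, Cd247, Lck, Zap70, Lat, Lcp2 and Fyn, 9 genes in all, and they were taken as every probeset of the array whose annotation gives the gene's symbol or an older name of it. By this rule 8 of the 9 genes had probesets, 14 of 22626, and Lck was not analysed here. All arrays came from thymocytes of female mice aged 6 to 8 weeks that carried the 3A9 TCR transgene, a receptor specific for hen egg lysozyme with I-Ak, on the C57BL10.H2k (B10) or the non obese diabetic (NOD) background, the latter also with the H2k haplotype. PreS cells were double positive thymocytes (CD4+CD8+CD69-1G12-) before selection, S+ cells were CD4+CD8low CD69+1G12+ thymocytes of TCR mice under positive selection, and S- cells were thymocytes of the same surface type from TCR insHEL mice, in which lysozyme is made under the insulin promoter and the cells meet it as a self antigen. Each strain had 3 pools of sorted cells for PreS from TCR mice, 3 for PreS from TCR insHEL mice, 3 for S+ and 3 for S-, with 24 arrays in all. PreS cells were sorted as negative and S+ and S- cells as positive for 1G12, an antibody to the transgenic receptor, so that the gate itself separated them by receptor level at the surface.

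The antigen receptor has no signalling tail of its own. Its CD3 gamma, delta and epsilon chains (Cd3g, Cd3d, Cd3e) and the zeta chain (Cd247) carry the tyrosine motifs that Lck and Fyn phosphorylate when the receptor is engaged, and the kinase Zap70 then docks on these motifs and phosphorylates the adaptors LAT and SLP-76 (Lcp2), on which the later steps of the signal are built. In the thymus this machinery reads both the weak signal that lets a cell survive and the strong signal that deletes it, and receptor levels are known to rise as double positive cells mature.

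Each value is a MAS 5.0 signal, the brightness of 1 probeset on 1 array on a linear scale, with every array scaled by the authors to the same trimmed mean. Differences were tested on log2 signals standardized for each array, with limma, and p values were adjusted by Benjamini-Hochberg over all 12838 probesets that passed a filter of at least 32 signal units in all 3 arrays of 1 group. The threshold was an adjusted p of 0.05. All 8 genes passed the filter, as did 13 of their 14 probesets, and each gene was represented by its probeset of highest mean signal. Signals of different probesets were not compared with each other. The labelled cell types were checked against marker lists. All 6 markers of double positive cells (Rag1, Rag2, Dntt, Ptcra, Cd8a, Cd8b1) were lower in B10 S+ and S- than in PreS cells, 4 in NOD S+ and 5 in NOD S-, while 3 of the 4 early single positive markers tested (Ccr7, Il7r and S1pr1) were higher in all these comparisons. The other, Cd5, was called in none of them, with log2 differences of 0.49 and 0.60 in B10 S+ and S- and -0.29 and 0.53 in NOD S+ and S-. Of 7 macrophage and dendritic cell markers tested, Csf1r (2.37, limma adjusted p = 0.0025) and Itgax (1.07, adjusted p = 0.0386) were higher in NOD S+ than in NOD PreS, and none was called in the other 3 comparisons with PreS. The summed signal of the 8 markers of that list was 2540 to 3638 in NOD S+ and 965 to 2176 in NOD PreS, and the part of such cells in the NOD S+ results was not tested. Lists of B cells, natural killer cells, erythroid cells and thymic epithelium were checked too. Cd79b (B cells) was lower in S+ and S- than in PreS in both strains. Epcam (epithelium) was lower in B10 S+ and Nkg7 (natural killer cells) higher in B10 S-. Nkg7 was also lower in NOD than in B10 at PreS and S-. No erythroid marker was called, and the part of these cells was not tested. The arrays differed in the 3' to 5' ratio of the Gapdh control probesets, a sign of RNA and cDNA length, which ran from 2.19 to 57.2. It was 57.2 and 40.9 in NOD S+ replicates 1 and 2, 29.4 in B10 S+ replicate 1, 28.9 in NOD PreS TCR insHEL replicate 1 and 16.6 or lower in the other 20. These are pools of cells, so that fewer cells with a transcript and less transcript per cell cannot be told apart.

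Promoters are shown for the members that the results turn on, taken from RefSeq sequence of build GRCm38.p6, with 250 bases before and 50 after the start site. Cd3d, Cd3e and Cd3g lie next to each other on chromosome 9, and the windows of Cd3g (chr9:44980382-44980681, minus strand) and Cd3d face away from each other with 854 bases between them. Cd3e (in B10 S+), Cd247, Lcp2 and Fyn are the members called higher after selection in B10. Cd3d is the only member whose representing probeset was called between the strains, at S+ alone and at the edge of the threshold. Capitals mark AGGAAG or its reverse complement CTTCCT, a longer run around the GGAA core that ETS factors bind. GGAA with other letters beside it was neither marked nor counted.
Cd3d promoter, chr9:44981536-44981835, plus strand: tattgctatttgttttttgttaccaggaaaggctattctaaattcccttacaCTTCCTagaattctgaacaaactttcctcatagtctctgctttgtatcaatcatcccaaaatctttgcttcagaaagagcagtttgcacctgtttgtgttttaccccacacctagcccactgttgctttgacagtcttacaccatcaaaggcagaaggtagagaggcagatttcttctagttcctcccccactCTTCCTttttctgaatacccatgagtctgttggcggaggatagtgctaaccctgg
Cd3e promoter, chr9:45009562-45009861, minus strand: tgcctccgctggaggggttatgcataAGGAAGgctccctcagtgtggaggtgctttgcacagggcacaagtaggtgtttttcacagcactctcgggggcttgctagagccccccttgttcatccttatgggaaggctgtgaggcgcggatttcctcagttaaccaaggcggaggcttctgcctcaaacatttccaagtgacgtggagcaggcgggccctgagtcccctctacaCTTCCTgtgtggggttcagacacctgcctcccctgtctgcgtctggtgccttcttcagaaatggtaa
Cd247 promoter, chr1:165788431-165788730, plus strand: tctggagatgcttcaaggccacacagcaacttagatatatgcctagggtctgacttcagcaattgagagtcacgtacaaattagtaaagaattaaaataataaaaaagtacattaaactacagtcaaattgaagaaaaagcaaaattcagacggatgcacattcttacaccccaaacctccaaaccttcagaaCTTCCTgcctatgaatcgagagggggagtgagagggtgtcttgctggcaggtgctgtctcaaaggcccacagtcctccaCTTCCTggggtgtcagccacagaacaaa
Lcp2 promoter, chr11:34046678-34046977, plus strand: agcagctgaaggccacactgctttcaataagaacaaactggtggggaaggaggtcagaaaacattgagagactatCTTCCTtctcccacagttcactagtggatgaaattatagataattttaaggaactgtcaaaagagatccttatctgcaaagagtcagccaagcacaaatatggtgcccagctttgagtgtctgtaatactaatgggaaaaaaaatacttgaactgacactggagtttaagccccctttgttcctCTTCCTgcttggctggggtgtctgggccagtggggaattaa
Fyn promoter, chr10:39369549-39369848, plus strand: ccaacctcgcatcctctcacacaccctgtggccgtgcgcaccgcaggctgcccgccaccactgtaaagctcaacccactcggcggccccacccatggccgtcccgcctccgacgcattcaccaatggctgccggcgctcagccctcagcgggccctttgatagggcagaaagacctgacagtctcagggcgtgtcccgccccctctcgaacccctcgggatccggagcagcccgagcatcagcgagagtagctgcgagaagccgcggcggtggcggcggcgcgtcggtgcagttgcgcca
AGGAAG or CTTCCT was found in the first window of 6 of 8 members (all but Cd3g and Fyn) and in 35.4% of all 32851 promoter windows of this length. The TATA box letters TATAAA (either strand) were in the window of 0 of 8 members and in 13.6% of all windows. E box letters (CANNTG, the same on both strands) were in all 8 and in 72.3% of all windows, a common motif in windows of this length. Only Fyn had no AGGAAG or CTTCCT among the 5 printed windows, and its window was also rich in G and C at 69.0%, against 42.3% in Cd3d. A match is a run of letters and not a measured binding site.

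In B10 thymocytes several members rose with selection, and in NOD thymocytes Fyn alone passed the test. In B10 S+ cells 4 of 8 members were higher than in PreS cells (Cd3e, Cd247, Lcp2 and Fyn) and 0 were lower, where 7.37% of all probesets were called higher and 9.44% lower. In B10 S- cells 3 of 8 were higher (Cd247, Lcp2 and Fyn) and 0 lower, against 4.42% and 6.80% of all probesets. In NOD cells only Fyn was called, higher in S+ (background 6.13% higher and 8.66% lower) and in S- (5.51% and 5.68%). The median log2 difference of the 8 members was 0.61 in B10 S+ and 0.52 in B10 S-, beside 0.05 and 0.01 over all genes tested, and it was 0.21 in NOD S+ and 0.32 in NOD S-, beside 0.05 and 0.03. These 4 comparisons use the same PreS arrays within a strain. Whether the strains differed in these changes was tested directly, and no member passed, as described further on.

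**Figure D1:**
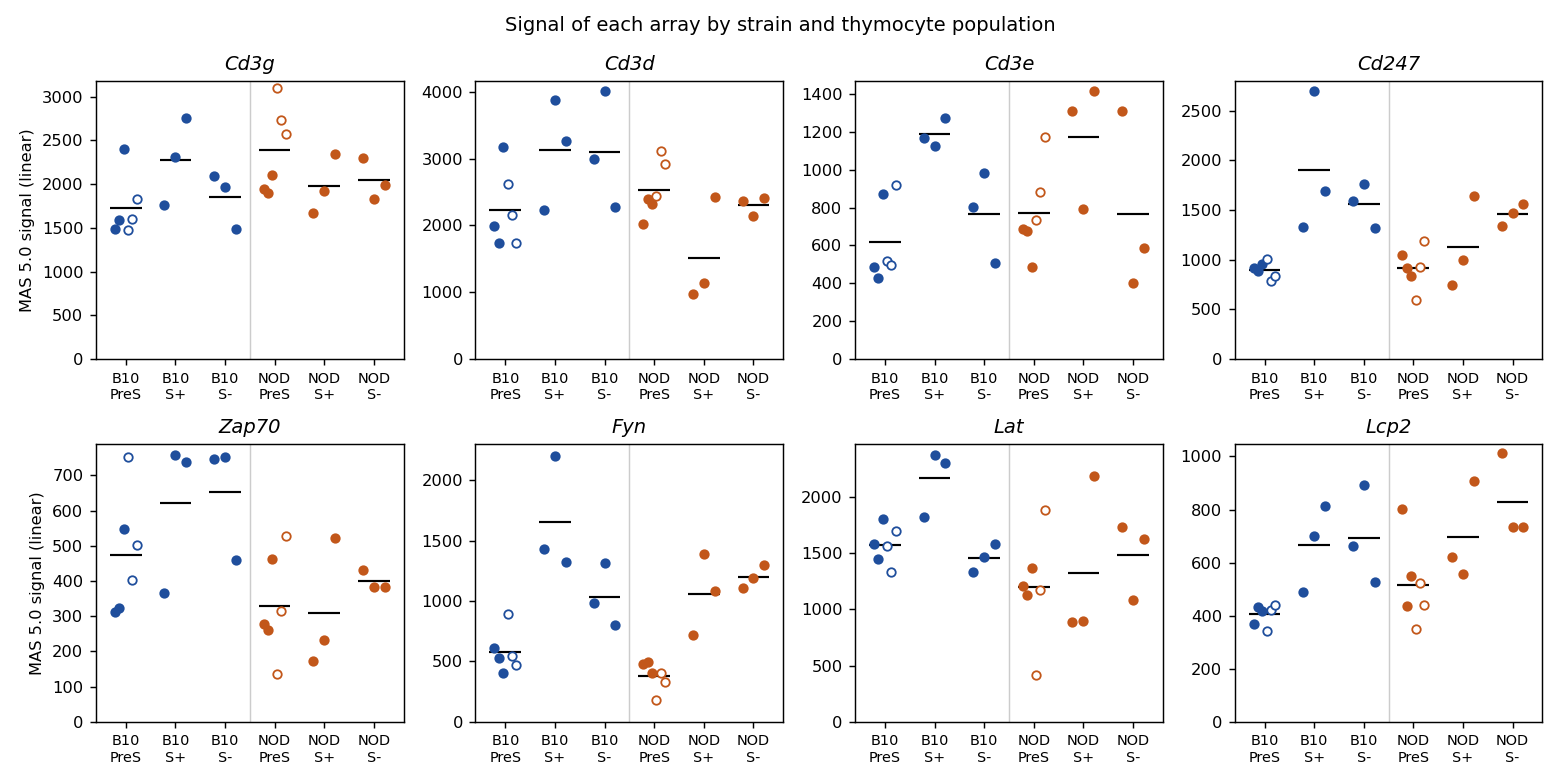
MAS 5.0 signal (linear scale, each axis from 0) of the representing probeset of the 8 members on each of the 24 arrays, by strain and population. Filled points are arrays of TCR mice for PreS and S+ and all arrays of S-, open points are PreS arrays of TCR insHEL mice, and bars are means. Fyn lies above all 6 PreS arrays in both NOD S+ and NOD S-, and Cd3d is low in 2 of 3 NOD S+ arrays (979 and 1137).

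Among the receptor chains, Cd247, which encodes the zeta chain with the most tyrosine motifs, was called higher in both selected B10 populations. Its signal in B10 PreS cells ran from 787 to 1005 with a median of 900, and it was 1325, 2694 and 1688 in the 3 S+ arrays and 1589, 1758 and 1322 in the 3 S- arrays. Every S+ and S- array lay above every PreS array, with replicate 2 of S+ far above the other two. The log2 difference from PreS was 1.05 in S+ (standard error 0.21, limma adjusted p = 0.0038) and 0.82 in S- (standard error 0.21, adjusted p = 0.0240). In S+ the call of this probeset held under every alternative of scaling, filter, test, batch and left-out array. In S- it was lost in limma with PreS arrays of TCR insHEL mice only (adjusted p = 0.0518), with no filter (0.0660), without S- replicate 1 (0.0754), without S- replicate 2 (0.127), without PreS TCR insHEL replicate 3 (0.0504) and with hybridization day as a block (0.273). In NOD cells Cd247 was 593 to 1186 in PreS, with a median of 923, then 749, 1002 and 1647 in S+ and 1336, 1475 and 1563 in S-. The NOD S+ arrays thus overlapped PreS, and the NOD S- arrays lay above all of them with a log2 difference of 0.63 (standard error 0.25, adjusted p = 0.129). The low NOD S+ arrays, replicates 1 and 2, were those with Gapdh ratios of 57.2 and 40.9, against 3.63 in replicate 3. The log2 difference of NOD S+ was 0.27 (limma adjusted p = 0.499), 0.47 with the ratio as a covariate (0.132) and 0.72 with only arrays of a ratio under 20 (0.216).

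Cd3e, which encodes the epsilon chain shared by both CD3 dimers of the receptor, was higher in B10 S+ cells. Its signal was 426 to 920 in B10 PreS cells (median 507) and 1168, 1123 and 1272 in S+, a narrow range above all PreS arrays. The log2 difference was 1.01 (standard error 0.28, limma adjusted p = 0.0255). It passed with hybridization day as a block (1.35, adjusted p = 0.0221), and the adjusted p rose to 0.0670, 0.0658 and 0.0735 when S+ replicate 1, 2 or 3 was left out. B10 S- cells gave 802, 984 and 510, within reach of PreS, with a log2 difference of 0.32 (adjusted p = 0.534). In NOD cells Cd3e was 484 to 1173 in PreS with a median of 710. It was 1309, 792 and 1418 in NOD S+ (log2 difference 0.63, standard error 0.38, adjusted p = 0.284) and 1312, 401 and 586 in NOD S-, where the 3 pools spread over a wide range (-0.20, adjusted p = 0.772).

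Cd3d and Cd3g, the delta and gamma chains that each pair with epsilon, did not pass the test in any comparison with PreS as fitted. In B10, Cd3d was 1737 to 3181 in PreS (median 2074), 2237, 3875 and 3267 in S+ and 3000, 4012 and 2275 in S-. The groups overlapped, with log2 differences of 0.54 (95% interval 0.02 to 1.07, adjusted p = 0.157) and 0.55 (0.03 to 1.08, adjusted p = 0.180). In NOD, Cd3d was 2017 to 3113 in PreS (median 2423), 979, 1137 and 2424 in S+ and 2366, 2147 and 2413 in S-. The first 2 S+ arrays were the lowest of all 24, and the log2 difference of NOD S+ was -0.81 (standard error 0.27, adjusted p = 0.0637), which passed without NOD S+ replicate 3 (-1.16, 0.0060) or NOD PreS TCR replicate 1 (-0.90, 0.0392). With only arrays of a Gapdh ratio under 20 it was -0.07 (0.930). Cd3g had log2 differences of 0.44 in B10 S+ (95% interval -0.01 to 0.89, adjusted p = 0.183), 0.16 in B10 S- (adjusted p = 0.683), -0.20 in NOD S+ (adjusted p = 0.622) and -0.25 in NOD S- (adjusted p = 0.552), and it passed in B10 S+ with the Gapdh ratio as a covariate (0.60, 0.0450). Its signals ran from 1480 to 2761 over the 12 B10 arrays and from 1674 to 3099 over the 12 NOD arrays, the smallest range, as a ratio of highest to lowest, of the 4 receptor chains.

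Of the kinases, Fyn, a Src family kinase that phosphorylates the CD3 and zeta motifs alongside Lck, was the only member called higher in all 4 comparisons with PreS. In B10 it was 402 to 891 in PreS (median 537), 1429, 2202 and 1323 in S+ and 984, 1315 and 799 in S-. S+ was above all PreS arrays, whereas S- replicate 3 was below the highest PreS array. The log2 differences were 1.54 in S+ (standard error 0.26, limma adjusted p = 7.9e-04) and 0.87 in S- (standard error 0.26, adjusted p = 0.0427). In NOD it was 181 to 496 in PreS (median 403), 716, 1387 and 1083 in S+ and 1107, 1191 and 1299 in S-. All 6 selected NOD arrays lay above all 6 PreS arrays, with log2 differences of 1.49 in S+ (standard error 0.30, adjusted p = 0.0061) and 1.63 in S- (standard error 0.30, adjusted p = 0.0035).

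The second probeset of Fyn gave the same directions. It rose by a log2 difference of 1.17 in B10 S+ (limma adjusted p = 0.0035), 1.40 in NOD S+ (0.0041) and 1.2 in NOD S- (0.0096), and its difference in B10 S- was 0.72 (0.0713). Its NOD S- call ended without S- replicate 2 (1.07, 0.0608) or S- replicate 3 (1.19, 0.0561). Its NOD S+ call ended with only arrays of a Gapdh ratio under 20, which leaves S+ replicate 3 (0.85, 0.252). Among arrays hybridized on the same day, the representing probeset was higher in B10 S+ than PreS by 1.26 and 1.42 on both shared days, higher in NOD S+ by 1.56 on the 1 shared day, and higher in B10 S- by only 0.22 on the 1 shared day. No day held arrays of both NOD S- and NOD PreS. With day as a block Fyn kept its call in B10 S+ (1.30, adjusted p = 0.0198). It lost the call in B10 S- (0.28, 0.760), NOD S+ (1.56, 0.699) and NOD S- (1.92, 0.9996). The B10 S- difference was thus smaller than the 0.87 fitted without the block, the NOD differences were not smaller, and the cause was not tested. The B10 S- call of Fyn also ended without S- replicate 1 (0.90, adjusted p = 0.1002), S- replicate 2 (0.67, 0.232) or any of the 3 PreS TCR arrays and PreS TCR insHEL replicates 2 and 3 (0.79 to 0.90, 0.054 to 0.087). In NOD both calls of Fyn held without any 1 array.

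Zap70, the Syk family kinase that binds the phosphorylated chains, passed no test as fitted. Its signal was 311 to 752 in B10 PreS (median 453), 365, 759 and 737 in S+ and 746, 753 and 460 in S-. In NOD it was 135 to 527 in PreS (median 296), 173, 232 and 521 in S+ and 431, 382 and 384 in S-. The groups overlapped in all 4 comparisons, with log2 differences of 0.38 (95% interval -0.30 to 1.06), 0.49 (-0.19 to 1.16), -0.23 (-1.09 to 0.62) and 0.29 (-0.57 to 1.14) in this order of strain and population, and limma adjusted p values from 0.367 to 0.724. The intervals reach past 1 log2 unit in B10, so the spread between pools leaves a sizeable change of Zap70 undecided. With the Gapdh ratio as a covariate it was called higher in B10 S+ (0.75, adjusted p = 0.0262).

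**Figure D2:**
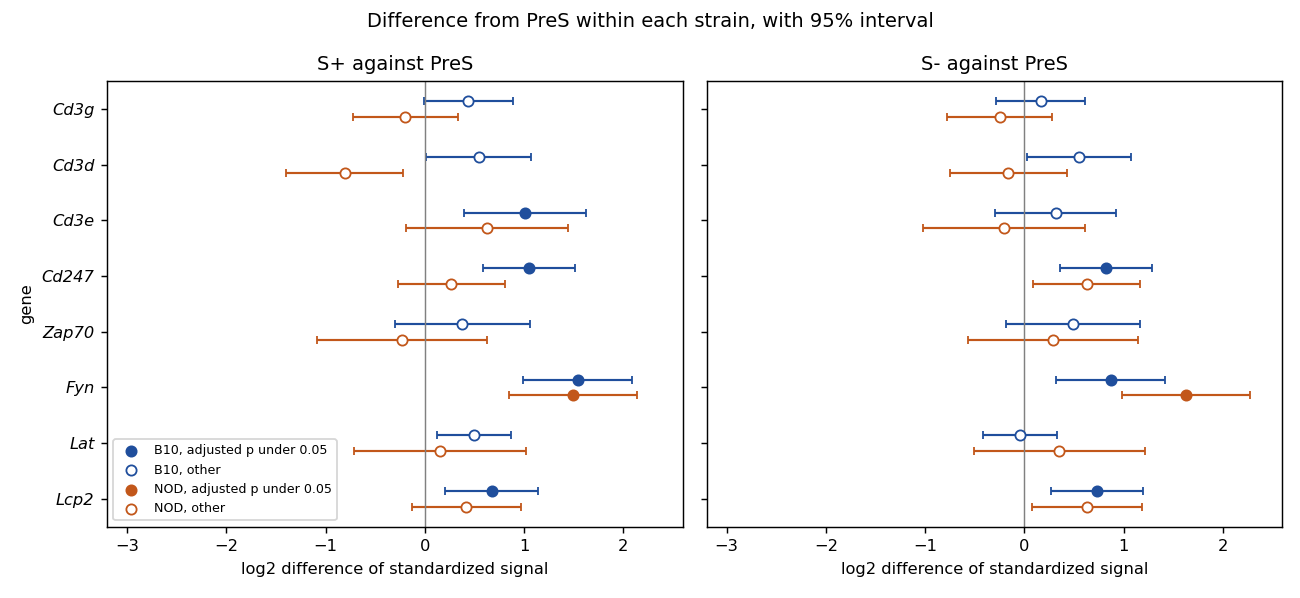
Log2 difference of standardized signal of S+ (left) and S- (right) from PreS for the 8 members, in B10 (3 arrays against 6) and NOD (3 against 6). Bars are 95% intervals of limma and filled points have an adjusted p under 0.05. Fyn is filled in all 4 comparisons, Cd247 and Lcp2 in both B10 comparisons and Cd3e in B10 S+.

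Of the adaptors, Lcp2 was called in B10 and Lat was not, and the difference between them was not tested. Lcp2 encodes SLP-76, the cytosolic scaffold that LAT recruits. Its representing probeset was 343 to 442 in B10 PreS (median 420), 488, 699 and 813 in S+ and 663, 891 and 527 in S-, so that all 6 selected arrays lay above all 6 PreS arrays. The log2 differences were 0.67 in S+ (standard error 0.22, limma adjusted p = 0.0478) and 0.73 in S- (standard error 0.22, adjusted p = 0.0449). Both stood close to the threshold. Leaving out 1 of 12 arrays took the S+ call away for 9 arrays (adjusted p 0.060 to 0.177), among them S+ replicates 2 and 3, S- replicate 1 and each of the 6 PreS arrays, and the S- call for 9 arrays (0.053 to 0.256), among them S- replicates 1 and 2, S+ replicate 2 and each of the 6 PreS arrays. On the 2 days shared by S+ and PreS its differences were 0.92 and 1.04, and on the day shared by S- and PreS 0.95. With day as a block neither call held (S+ 0.96, adjusted p = 0.0600, and S- 0.97, adjusted p = 0.168). In NOD it was 350 to 802 in PreS (median 481), 619, 558 and 908 in S+ and 1015, 735 and 735 in S-, with log2 differences of 0.42 (adjusted p = 0.287) and 0.63 (95% interval 0.08 to 1.18, adjusted p = 0.132).

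Lat encodes the membrane adaptor that Zap70 phosphorylates. It was 1335 to 1803 in B10 PreS (median 1573), 1821, 2377 and 2300 in S+ and 1336, 1464 and 1580 in S-. The S+ arrays lay just above the PreS range and above all S- arrays, and the log2 difference from PreS was 0.50 in S+ (95% interval 0.13 to 0.87, limma adjusted p = 0.066) and -0.05 in S- (-0.42 to 0.33, adjusted p = 0.902). In NOD it was 416 to 1888 in PreS (median 1192), 891, 892 and 2187 in S+ and 1735, 1085 and 1624 in S-. The NOD groups overlapped (log2 differences 0.15 and 0.35, adjusted p = 0.827 and 0.611).

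Deletion was compared with positive selection directly, as S- against S+. In B10, 0 of 8 members passed (limma, 1.67% of all probesets called), and 2 of 8 had an unadjusted p under 0.05, as did 1499 of all 12838 probesets. These were Lat, lower in all 3 S- arrays than in any S+ array (log2 difference -0.55, 95% interval -0.98 to -0.12, adjusted p = 0.265), and Fyn (-0.67, -1.31 to -0.04, adjusted p = 0.392). Cd3e was also below S+ in all 3 S- arrays (-0.69, -1.40 to 0.01, adjusted p = 0.439). The other 5 members differed by -0.28 to 0.11. In NOD, 0 of 8 members passed and 0% of all probesets were called, with 565 of 12838 probesets and 0 of 8 members at an unadjusted p under 0.05. The member differences in NOD ran from -0.83 for Cd3e (95% interval -1.77 to 0.11) to 0.65 for Cd3d (-0.03 to 1.33). Fyn differed by 0.13 in NOD (-0.61 to 0.88).

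The strains were compared within each population in 1 fit of all 24 arrays. At PreS 0 of 8 members differed (4.13% of all probesets called, 2.48% lower in NOD), with Cd3g at 0.53 (95% interval 0.16 to 0.90, limma adjusted p = 0.108) and Fyn at -0.55 (-1.02 to -0.08, adjusted p = 0.205) the members with an unadjusted p under 0.05, as 2347 of 12838 probesets had. At S+ 1 of 8 members was called, Cd3d, lower in NOD with 3 arrays a strain (3.70% of all probesets called, 1.86% lower). There 4 of 8 members had an unadjusted p under 0.05, as did 2438 of 12838 probesets, and all 4 were lower in NOD, with Zap70 at -1.12 (95% interval -2.01 to -0.23, adjusted p = 0.159), Lat at -0.79 (-1.54 to -0.03, adjusted p = 0.244) and Cd247 at -0.71 (-1.26 to -0.17, adjusted p = 0.143) beside Cd3d. The median of the 8 members at S+ was -0.66, beside 0.01 over all genes. At S- 0 of 8 differed (2.32% called, 1.15% lower). The Cd3d arrays overlapped, since NOD S+ replicate 3 (2424) lay above B10 S+ replicate 1 (2237), and the log2 difference was -1.07 (standard error 0.30, adjusted p = 0.0445).

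This call of Cd3d at S+ stood at the edge of the threshold. NOD S+ replicates 1 and 2, with 979 and 1137, were also the 2 arrays of highest 3' to 5' Gapdh ratio (57.2 and 40.9), and their part in the result was not tested. With the ratio as a covariate the difference was -0.86 (limma adjusted p = 0.102), and with only the arrays of ratio under 20, which leaves 1 NOD S+ array, it was -0.57 (adjusted p = 0.881). The call was lost without B10 S+ replicate 2 (-0.89, 0.235), B10 S+ replicate 3 (-1.04, 0.145), NOD S+ replicate 1 (-0.84, 0.306) or NOD S+ replicate 2 (-0.95, 0.198). It also ended (adjusted p 0.0504 to 0.0561) without any 1 of B10 PreS TCR replicates 1 and 2, the 3 B10 PreS TCR insHEL arrays, NOD PreS TCR replicates 2 and 3, B10 S- replicate 1 and the 3 NOD S- arrays. Without NOD S+ replicate 3 Cd3d, Cd247, Zap70 and Lat were all called lower in NOD S+, with the 2 high-ratio arrays left to stand for the group. No day held S+ arrays of both strains. Markers of other cells moved in the same comparison, as Cd74 and Itgax of the 8 macrophage and dendritic cell markers were higher in NOD S+ than B10 S+ (log2 differences 2.05 and 1.43, adjusted p = 0.0290 and 0.0371). The summed signal of these 8 markers was 2540 to 3638 in NOD S+ and 663 to 1623 in B10 S+, while Itgam stayed at 19 or less in both. Rag1, Rag2 and Dntt of the 6 double positive markers were higher too (1.60, 2.52 and 4.65), with summed signals of 3338 to 4585 against 659 to 871. Dntt, with a mean of 2926 in NOD S+ and 148 in B10 S+, was also higher in NOD at PreS (6174 against 544) and S- (1653 against 183). The sum thus carries a strain difference of Dntt seen in every population. Cd8a (393 against 283), Ptcra (84.2 against 41.3) and Cd8b1 (131 against 188) were not called at S+. The part of macrophage, dendritic or double positive cells in the Cd3d result was not tested.

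Whether the strains differed in the change from PreS was tested as an interaction, and 0 of 8 members passed in S+ (0.358% of all probesets called), in S- (0.101%) or in S- against S+ (0.148%). The largest in S+ was Cd3d, with a difference of differences of -1.35 (NOD minus B10, 95% interval -2.10 to -0.60, unadjusted p = 0.0012, limma adjusted p = 0.120), which was called without NOD S+ replicate 3. Cd247 had -0.78 in S+ (-1.44 to -0.12, adjusted p = 0.449). These were the 2 members with an unadjusted p under 0.05 in S+, as 1135 of 12838 probesets had. The 3 genes called in B10 S+ and not in NOD S+ thus were not shown to differ between the strains, with intervals of -1.39 to 0.63 for Cd3e and -0.93 to 0.42 for Lcp2. Fyn differed by -0.05 in S+ (-0.87 to 0.77), 0.76 in S- (-0.06 to 1.58, adjusted p = 0.431) and 0.81 in S- against S+ (-0.14 to 1.75, adjusted p = 0.719). PreS cells of TCR insHEL mice were also set against those of TCR mice. No member was called in B10 (0% of all probesets, 287 of 12838 and 0 of 8 members at an unadjusted p under 0.05) or in NOD (0.0312%), where Cd3g had the only unadjusted p under 0.05 among the members (0.59, 95% interval 0.08 to 1.10, adjusted p = 0.445), as 1333 of 12838 probesets had.

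The probesets of a gene did not always tell the same story, and Lcp2 was the extreme case. Its second probeset read 84 to 160 in B10 PreS (median 133), 348, 229 and 191 in B10 S+ and 188, 217 and 283 in B10 S-, and 16 to 23 in NOD PreS (median 20), 33, 22 and 12 in NOD S+ and 46, 23 and 20 in NOD S-. All 12 NOD arrays (12.4 to 46.4) lay below all 12 B10 arrays (83.9 to 348), and only 2 of 12 NOD arrays reached 32. The log2 difference of NOD from B10 was -2.58 at PreS (standard error 0.22, limma adjusted p = 5.6e-08), -3.72 at S+ (standard error 0.31, adjusted p = 5.8e-08) and -3.08 at S- (standard error 0.31, adjusted p = 1.1e-06). This probeset passed the filter only through the B10 groups, where it was high. These sizes rest on NOD signals that were mostly under the filter's 32 units, and all 3 calls held under every alternative. On the same arrays the representing probeset differed by 0.35 (95% interval -0.04 to 0.74), 0.10 (-0.45 to 0.65) and 0.25 (-0.30 to 0.81), with overlapping strains. Of 2646 genes with several probesets tested, 12, with Lcp2 itself among them, had a gap between probesets of 2.93 (that of Lcp2) or more in the PreS comparison. Which of the probesets follows the mRNA in NOD was not tested.

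Within B10 the second Lcp2 probeset followed the first, with a log2 difference from PreS of 0.90 in S+ (standard error 0.24, limma adjusted p = 0.0178) and 0.75 in S- (adjusted p = 0.0590). The S+ call ended without S+ replicate 1 (0.65, adjusted p = 0.0990). Of the 3 further Cd247 probesets, which were dim (mean signals from 15 to 79 in the 6 conditions), 1 rose in B10 S+ (1.40, adjusted p = 6.4e-04) and in B10 S- (0.84, adjusted p = 0.0282), with signals of 21 to 43 in PreS, 91, 77 and 70 in S+ and 56, 59 and 52 in S-. This probeset passed the filter only through B10 S+, B10 S- and NOD S+, the groups where it was high. Its S- call ended without S- replicate 1 or 2, PreS TCR replicate 1 or 2 or PreS TCR insHEL replicate 3 (adjusted p 0.052 to 0.130). In NOD S+ the same probeset was above all PreS arrays (70, 55 and 37 against 4 to 29) with 1.61 (adjusted p = 0.0637). Another Cd247 probeset was not called in any comparison with PreS, and the last did not pass the filter. The second Zap70 probeset was not called in any comparison either.

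**Figure D3:**
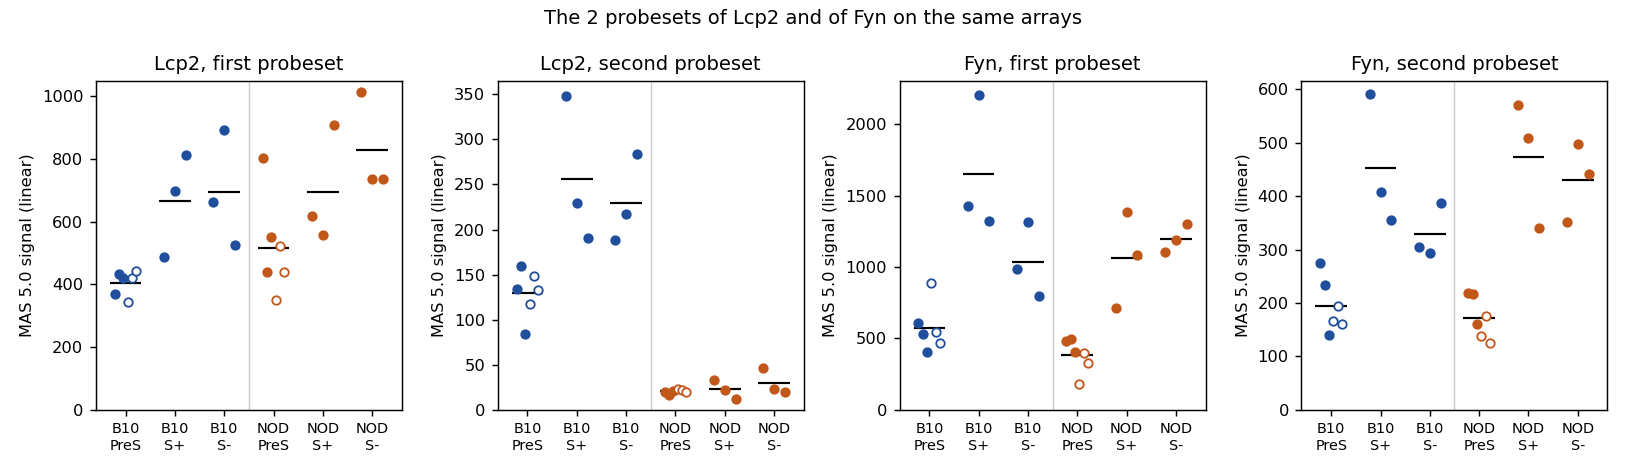
MAS 5.0 signal (linear scale, each axis from 0) of the representing (first) and second probeset of Lcp2 and of Fyn on the 24 arrays, by strain and population, with symbols as in the plot of member signals. The 12 NOD arrays lie below the 12 B10 arrays in the second probeset of Lcp2 and overlap them in the first, while both Fyn probesets lie above PreS in all S+ arrays and in all S- arrays but B10 S- replicate 3 in the first.

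Cd247, Zap70, Lat and Lcp2 were low on the 4 arrays of 3' to 5' ratio over 20. The Zap70 signals of these arrays were the lowest of their groups, at 365 in B10 S+ replicate 1, 135 in NOD PreS TCR insHEL replicate 1 and 173 and 232 in NOD S+ replicates 1 and 2, next to 521 in NOD S+ replicate 3. Lat showed the same in these arrays (1821, 416, 891 and 892, next to 2187 in NOD S+ replicate 3), as did Cd247 (1325, 593, 749 and 1002, next to 1647). Lcp2 (488, 350, 619 and 558, next to 908) was likewise lowest there within its groups. Cd3d was lowest within its groups only in the S+ arrays among them (2237, 979 and 1137, next to 2424). In NOD PreS TCR insHEL replicate 1 Cd3d was 2444, above the NOD PreS median of 2423. Log2 signal and log2 ratio were also taken as deviations from the mean of their strain and population. Over the 24 arrays the Pearson correlation of these deviations was -0.88 for Zap70, -0.71 for Lat, -0.66 for Lcp2 and -0.65 for Cd247. It was -0.53 for Cd3d, -0.32 for Cd3e, -0.27 for Cd3g and -0.20 for Fyn. For the second probesets it was 0.48 for Zap70, 0.56 for Lcp2 and 0.75 for Fyn. For the further, dim Cd247 probesets it was -0.78, 0.15 and 0.49, the last for the probeset that did not pass the filter. The second probesets of Zap70 and Fyn ran the other way in NOD S+. That of Zap70 was 257 and 236 in NOD S+ replicates 1 and 2 and 171 in replicate 3, and that of Fyn was 571 and 509 against 341. The Cd247 probeset at -0.78 did not, with 1.3 and 20.2 against 83. The part of RNA length in these values was not tested. With only the 20 arrays of ratio under 20 the called members were Cd247, Lcp2 and Fyn in B10 S+ and in B10 S-, and Fyn in NOD S+ (1.31, limma adjusted p = 0.0455) and NOD S- (1.46, adjusted p = 8.8e-04). Cd3e in B10 S+ then stood at 1.01 (adjusted p = 0.0670).

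**Figure D4:**
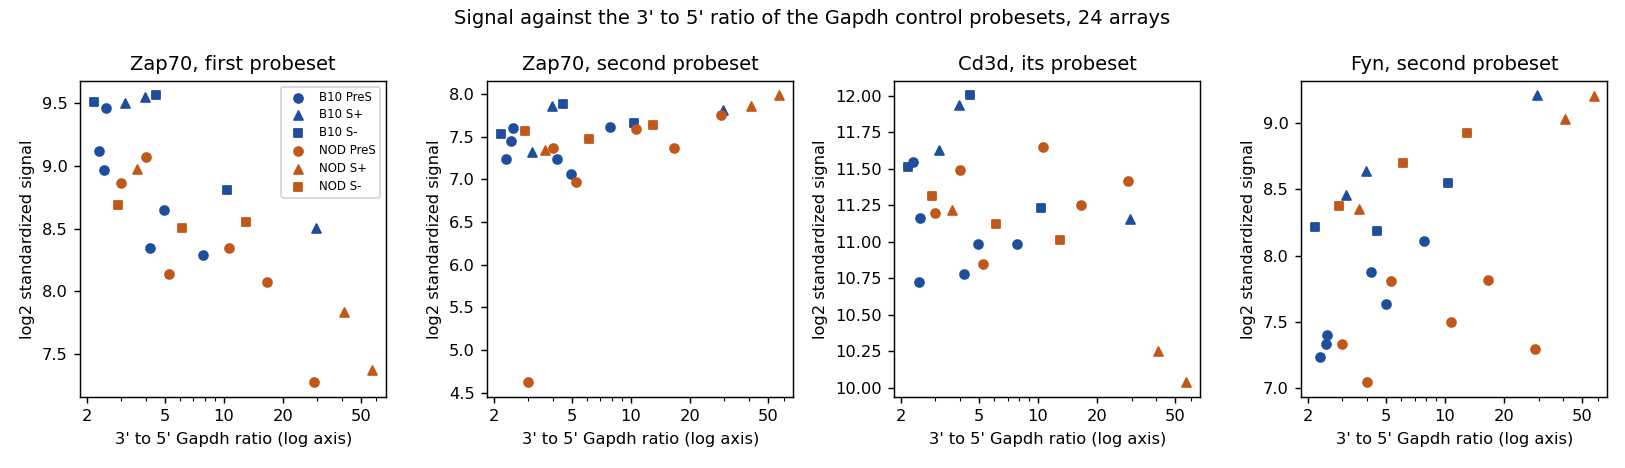
Log2 standardized signal of 4 probesets of Zap70, Cd3d and Fyn against the 3' to 5' ratio of the Gapdh control probesets (log axis) on the 24 arrays, coloured by strain and with shapes for the populations. The first Zap70 probeset is low on arrays of high ratio and the second Fyn probeset is high on the 3 S+ arrays of high ratio, while the lowest Cd3d values are those of NOD S+ replicates 1 and 2.

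The genes that carry the signal on from these members, adaptors, Tec kinases and other enzymes, formed a list of 33, of which 24 were on the array under these names and 22 were tested. In B10 S+ cells 3 rose (Cd2, a costimulatory receptor, at 1.04, Hcls1, a cortical actin adaptor, at 0.90, and Prkcq, the protein kinase of the synapse, at 0.73) and 3 fell (Syk, the relative of Zap70, at -1.93, Tec at -0.92 and Sla, an adaptor that promotes receptor turnover, at -0.68). In B10 S- cells Cd2 (0.90) and Hcls1 (1.22) rose and Syk (-1.69) fell. In NOD S+ cells Sla (-1.71), Tec (-1.16) and Syk (-0.84) fell and none rose, and in NOD S- cells Hcls1 (1.01) rose while Tec (-1.51), Syk (-0.99) and Sla (-0.96) fell. Over all probesets 7.37% were called higher and 9.44% lower in B10 S+, and 4.42% and 6.80% in B10 S-. The shares were 6.13% and 8.66% in NOD S+, and 5.51% and 5.68% in NOD S-. The median of the list was 0.24 in B10 S+, 0.11 in B10 S-, -0.24 in NOD S+ and 0.28 in NOD S-, beside 0.05, 0.01, 0.05 and 0.03 over all genes. In S- against S+ 0 of 22 passed in either strain, where 1.67% of all probesets were called in B10 and 0% in NOD. Between the strains Hcls1 was lower in NOD S+ (-1.003, limma adjusted p = 0.0298) and Tec lower in NOD S- (-1.19, adjusted p = 0.0119). Of all probesets 1.86% were called lower in NOD at S+ and 1.15% at S-.

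Syk fell where Zap70 did not pass the test. Its signal was 143 ± 30.6 in B10 PreS (SD, n = 6), 39.6 ± 10.99 in S+ (n = 3) and 50.4 ± 22.2 in S- (n = 3), and 99.9 ± 13.8, 66.0 ± 19.1 and 57.0 ± 7.9 in NOD. Of 9 genes that act on Lck and Fyn (kinases, phosphatases and coreceptors that restrain, release or carry them), all were tested. Cd4 and Ptprc, which encodes the phosphatase CD45, rose in B10 S+ (1.79 and 0.75). Cd8a and Cd8b1 fell there (-3.06 and -2.01), as the CD8low gate selects. In B10 S- Ptprc rose (0.78) and Cd8a and Cd8b1 fell, and Cd4 was lower than in S+ (-1.71, limma adjusted p = 0.0193). In NOD S+ Cd4 rose (1.19) and Cd8a and Cd8b1 fell, and in NOD S- Cd8a fell. The shares of all probesets called in these comparisons were given with the list of signalling genes above. Between the strains Cd4 was higher in NOD at PreS (0.79, adjusted p = 0.0398) and S- (1.47, adjusted p = 0.0085). Unc119, which encodes a trafficking chaperone of these kinases, was lower in NOD at S+ (-2.87, adjusted p = 0.0395). Its signal ran from 3.3 to 78.4 in NOD S+ (mean 29.5) and from 58.5 to 101.3 in B10 S+. The strains thus overlapped, and the size of the difference rests on low NOD S+ signals. The part of the Gapdh ratio in this result was not tested. Csk, Pag1, Ptpn22, Ptpn6 and Unc119 passed in no comparison with PreS. Of the antigen receptor chains themselves none was listed under the 11 names searched, and they were not analysed here.

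Over the 24 arrays the log2 signals of the members were alike only in part. Among the 28 pairs the highest Pearson correlation was that of Cd247 with Fyn (0.80), followed by Zap70 with Lat (0.74), and the lowest that of Cd3g with Fyn (-0.20). Cd3d correlated at 0.43 with its neighbour Cd3g and at 0.18 with Cd3e, and Cd3e at 0.60 with Cd3g. Of 5088 other genes with a mean signal of at least 100, the 2 most like each member over the 24 arrays were Bach2 (0.94) and Slc50a1 (0.94) for Fyn, Got1 (0.94) and Psmb10 (0.93) for Zap70, and Pstpip1 (0.92) and Ctsa (0.91) for Lat. They were Ltb (0.91) and Sertad1 (0.90) for Cd247, Rps9 (0.88) and Gabarap (0.87) for Cd3d, and Galnt11 (0.84) and Evl (0.81) for Lcp2. For Cd3g they were Sri (0.82) and Nt5c3 (0.78), and for Cd3e, with the weakest likeness, Shc1 (0.69) and Nmb (0.65). These correlations are descriptions over arrays that share populations, strains and RNA length, and they were not tested.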

How the data were processed

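Sorted thymocyte pools gave RNA that, after amplification by repeated in vitro transcription, was hybridized to Affymetrix 430A arrays, 24 in all. The values are intensities that the authors deposited as MAS 5.0 signals on a linear scale, with each array scaled to a common trimmed mean. The methods of the study also describe the removal of controls, the floor for zeros and the standardization followed here, and a filter on detection calls, for which a signal minimum was used here. The experiment files deposited with each array gave the hybridization day (9 days), and the authors' own comparisons were not used. The 64 control probesets among 22690 were left out, 0.1 replaced the 33 zeros, and log2 signals were standardized for each array. The test took the 12838 probesets that reached 32 on each of the 3 arrays of some group. Symbols came from a platform annotation table, in which 20380 probesets had 1 symbol, 691 several and 1555 no row. Lck had no probeset in it. Every probeset of a member was reported, and the one of highest mean signal stood for the gene.

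Groups followed the sample labels, which number the replicates. That these were independent pools comes from the text of the study. limma 3.58.1 (R 4.3.3) was fitted with PreS arrays of both transgene types as 1 group. Changes within a strain used its 12 arrays, and strain differences and interactions used all 24. P values were adjusted by Benjamini-Hochberg over all probesets tested, at a threshold of 0.05. The number of arrays limits the precision. The fits were tested on simulated data. The members and gene lists were chosen with earlier results of these data known. Replicate numbers gave no clear pairing of the arrays. The correlation of deviations of same-numbered arrays ran from -0.324 to 0.632, with a mean of 0.036 beside -0.018 for different numbers. Its mean was 0.179 for arrays of the same hybridization day, and the main fits had no term for the day. Alternatives covered the scaling, the floor and filter, the unmoderated test of the methods, the day, the replicate number and the 3' to 5' Gapdh ratio, the arrays in the fit, other probesets and each array left out. The alternative with only arrays of a Gapdh ratio under 20 was chosen after seeing the data.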

Additional observations from a re-analysis of the deposited data

Results flagged for a closer look

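Of 28 groups of 6 PreS arrays, 1 for each probeset and strain, 2 held an array far from the others on the log2 standardized scale, where chance gives about 1 in 20. The second Zap70 probeset read 24.6 in NOD PreS TCR replicate 3 and 117 to 189 in the other 5 NOD PreS arrays, a gap of 0.748 of the whole range in log2 standardized signal. Lat read 416 in NOD PreS TCR insHEL replicate 1 and 1128 to 1888 in the other 5, a gap of 0.637 of the whole range on the same scale. The Gapdh ratio of the latter array was 28.9. Groups of 3 arrays were not looked at.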

How the results depend on the processing

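Under 392 fits with other settings, the 19 called differences of members and their other probesets kept their sign in all 496 settings and stayed past the threshold in 400 of them. In B10 S+ against PreS 4 members were called, and 2 with no filter, with all 24 arrays in 1 fit or with PreS arrays of the same transgenes only, and 2 to 4 with 1 array left out. In B10 S- against PreS 3 were called, and 0 with no filter, with hybridization day as a block or with PreS arrays of the same transgenes, 1 with the unmoderated test of the methods, and 0 to 3 with 1 array left out. In NOD S+ against PreS 1 was called, and 2 with signals under 16 set to 16 or with all 24 arrays, 0 with day as a block, and 1 to 2 with 1 array left out. In NOD S- against PreS 1 was called, and 0 with day as a block. In NOD against B10 at S+ 1 was called, and 0 with quantile normalization, no filter, the unmoderated test, day as a block, the Gapdh ratio as a covariate or only arrays of a ratio under 20, and 0 to 4 with 1 array left out. The strain difference in S+ against PreS had 0 members called and 0 to 1 with 1 array left out. The causes were not tested.

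Some signs turned. Lcp2 in NOD against B10 read -2.58, -3.72 and -3.08 at PreS, S+ and S- with its other probeset, and at S+ the first probeset gave -0.037 with day as a block and -0.10 to 0.25 with 1 array left out. Zap70 at S+ was 0.066 with its other probeset. The strain difference of Cd247 in S+ was 0.21 with another probeset, and the dimmest tested Cd247 probeset gave 0.13 at S+ with only arrays of a ratio under 20. With the replicate block, which does not reflect a known pairing, the counts of called members did not change in any comparison (Fyn 1.54, Cd247 1.05 and Cd3e 1.01 in B10 S+), and 9 of 24 arrays correlated best with their own number.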
